A study of Mus musculus with 2 samples.

Results

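The genes followed here in intestinal epithelial cells sense nucleic acid in the cytosol or pass that signal on: the DNA sensors Cgas and Zbp1, the RNA sensors Ifih1 and Ddx58, the adaptor Mavs, the kinase Tbk1 and the transcription factors Irf3 and Irf7. They were chosen by name, with earlier results of these data known. All 8 were found among the 55401 annotated genes of the gene expression library. The cells came from 1 sample of small intestine, from a TrnA-mutant mouse aged 55 weeks and labelled with a 73% mutation load. TrnA is the alanine tRNA gene of mitochondrial DNA (mtDNA), and whether animals were pooled is not stated. Gene expression and ATAC libraries, which read RNA and open chromatin, came from the same formaldehyde-fixed cells, sorted after staining for CD45, CD31, TER-119 and CD326 with gates that are not stated. The series concerns mtDNA mutation and acute colitis, but the labels do not say if colitis had been induced here, and no control animal was analysed. Each comparison is thus between classes or states of cells within the sample, all of which carry the mutation. With 1 sample there was no test, and every interval below is a 95% counting interval that covers counting error only.

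Cells meet foreign or misplaced nucleic acid in the cytosol with dedicated receptors. Cgas binds double-stranded DNA and makes cyclic GMP-AMP, which activates the adaptor Sting1. Ifih1 (MDA5) and Ddx58 (RIG-I) bind double-stranded RNA and signal through Mavs on the mitochondrial outer membrane. Both routes lead to the kinase Tbk1, which phosphorylates Irf3 and Irf7, the factors that switch on interferon genes. Zbp1 binds left-handed nucleic acid and engages Ripk3 in cell death. In mice Zbp1, Ifih1, Ddx58 and Irf7 are themselves induced by interferon, and mtDNA and mitochondrial RNA are known ligands of these routes.

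Barcodes with at least 500 UMIs (unique molecular identifiers, each standing for a captured RNA molecule), 300 genes and 1000 peak counts numbered 9872 of 12363. Of their UMIs, 66.1% were encoded by mtDNA, and the median cell held 5591 UMIs, of which the nuclear genome encoded a median of 1547, and 12884.5 counts in ATAC peaks. Clusters were named from marker genes as crypt progenitor-like (1903 cells, stem-like and cycling-like together), goblet-like (1495), Paneth-like (270), enteroendocrine-like (177), tuft-like (79), lymphocyte-like (104) and enterocyte-like (3220), and 2624 cells stayed unnamed. The 8 genes did not take part in the clustering. Levels are UMIs per 1000000 nuclear-encoded UMIs (UPM), because mtDNA-encoded RNA took 54.9% of the UMIs of crypt progenitor-like cells and 79.7% of those of enterocyte-like cells. Medians of nuclear-encoded UMIs per cell were 3018 and 846 in these classes. The 8 genes held 9252 UMIs in the kept cells, between 247 for Zbp1 and 3267 for Tbk1. Per RefSeq on mm10 they lie at chr9:78430518-78443237 (Cgas), chr2:173206612-173218959 (Zbp1), chr2:62595618-62646255 (Ifih1), chr4:40203777-40239825 (Ddx58), chr2:131234063-131248025 (Mavs), chr10:121546455-121586794 (Tbk1), chr7:44997648-45002848 (Irf3) and chr7:141263183-141266499 (Irf7).

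Promoters of 3 members are shown because their RNA patterns differed and because letters of a searched motif lay in them. They are RefSeq sequences of GRCm38.p6, the assembly of mm10, from 250 bases before to 50 bases after the gene start, on the gene's strand. Of the 8 members, 7 were matched by symbol in the RefSeq table, and Zbp1 was not. Capitals mark GAAANNGAAA, the core of the interferon-stimulated response element, in Ifih1 and Ddx58, and TTTGCCGC, a form of the E2F consensus, in Cgas, read on either strand.
Ifih1, chr2:62646206-62646505, minus strand: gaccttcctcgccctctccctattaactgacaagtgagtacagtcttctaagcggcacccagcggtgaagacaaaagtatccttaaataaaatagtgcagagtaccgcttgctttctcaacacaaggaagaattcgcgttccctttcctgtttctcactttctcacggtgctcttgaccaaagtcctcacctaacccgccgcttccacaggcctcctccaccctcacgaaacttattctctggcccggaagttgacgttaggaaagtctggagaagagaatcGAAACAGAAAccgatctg
Ddx58, chr4:40239776-40240075, minus strand: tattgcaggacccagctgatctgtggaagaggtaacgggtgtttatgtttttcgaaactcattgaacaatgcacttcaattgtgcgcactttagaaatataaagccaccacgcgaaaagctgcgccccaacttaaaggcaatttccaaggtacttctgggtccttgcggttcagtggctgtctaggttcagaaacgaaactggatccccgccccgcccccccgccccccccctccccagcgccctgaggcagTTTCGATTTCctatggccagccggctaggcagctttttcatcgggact
Cgas, chr9:78443188-78443487, minus strand: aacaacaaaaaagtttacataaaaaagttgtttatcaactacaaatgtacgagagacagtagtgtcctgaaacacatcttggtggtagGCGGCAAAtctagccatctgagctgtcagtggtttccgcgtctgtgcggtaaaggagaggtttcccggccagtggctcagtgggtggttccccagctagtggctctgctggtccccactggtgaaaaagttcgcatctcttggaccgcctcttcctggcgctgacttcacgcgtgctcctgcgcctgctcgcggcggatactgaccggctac
The response element core was found in 2 of the 7 member promoters and in 3.44% of 32851 promoters of the same length. One of the 4 forms TTTCCCGC, TTTGCCGC, TTTGGCGC and TTTCGCGC was found in 1 member and in 2.26% of all promoters. The core TTCNNNGAA of the gamma-activated site, searched in the same way, was in none of the 7 and in 8.30% of all promoters. A match describes these letters and is not evidence of binding.

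Cgas RNA was highest by point value in crypt progenitor-like cells and near its floor in enterocyte-like cells. Crypt progenitor-like cells held 252 Cgas UMIs, or 36.6 UPM (32.2 to 41.4), against 6 UMIs, or 1.52 UPM (0.560 to 3.32), in enterocyte-like cells. The level was 24.0-fold higher in crypt progenitor-like cells (10.9 to 66.1), a log2 ratio of 4.59. With classes from clusters of ATAC peaks, the log2 ratio was 2.94 (2.25 to 3.72). Those classes do not hold the same cells. Their progenitor class takes in clusters led by Gm8989 and Ros1 (1190 cells) and by Gsdmc2 and Gsdmc3 (709 cells). Between the main crypt progenitor-like and enterocyte-like levels lay Paneth-like cells at 13.4 UPM (13 UMIs). So did enteroendocrine-like cells at 9.84 UPM (4 UMIs) and goblet-like cells at 8.87 UPM (45 UMIs). Intervals of these 3 neighbours overlapped, while that of goblet-like cells did not overlap that of enterocyte-like cells. Lymphocyte-like cells, which had Ptprc (CD45) among their leading genes, held 2 Cgas UMIs and tuft-like cells none, which allows up to 16.9 UPM there at 3 counts. Cycling-like progenitors stood at 39.3 UPM and stem-like progenitors at 34.2 UPM (log2 ratio 0.20, -0.17 to 0.57).

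Zbp1 showed the reverse order. Crypt progenitor-like cells held 9 UMIs, or 1.31 UPM (0.598 to 2.48), against 107 UMIs, or 27.2 UPM (22.3 to 32.9), in enterocyte-like cells. Its level was 20.8-fold lower in crypt progenitor-like cells (10.6 to 46.7), a log2 ratio of -4.38. With classes from clusters of ATAC peaks, which do not hold the same cells, it was -3.24 (-3.88 to -2.64). Goblet-like cells stood at 19.5 UPM (99 UMIs), 1.39-fold lower than enterocyte-like cells (1.05 to 1.85). Paneth-like cells held 2 Zbp1 UMIs and enteroendocrine-like cells none, which allows up to 7.38 UPM.

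Both RNA sensors were highest by point value in enterocyte-like cells among the named classes. Ifih1 stood at 69.0 UPM (475 UMIs) in crypt progenitor-like cells and 219 UPM (863 UMIs) in enterocyte-like cells, 3.18-fold lower in the progenitors (2.84 to 3.56). Ddx58 stood at 20.1 UPM (138 UMIs) in crypt progenitor-like cells and 92.5 UPM (364 UMIs) in enterocyte-like cells, 4.61-fold lower in the progenitors (3.78 to 5.65). Goblet-like cells were second for both genes by point value, at 160 UPM of Ifih1 and 46.7 UPM of Ddx58, and their intervals did not overlap those of enterocyte-like cells. Lymphocyte-like cells, with 10 UMIs of Ifih1 and 1 of Ddx58, had intervals that overlapped those of enterocyte-like cells. So did tuft-like cells for Ddx58 (8 UMIs). Paneth-like cells lay beside the progenitors, at 54.6 UPM of Ifih1 and 19.6 UPM of Ddx58, with overlapping intervals. An annotated noncoding gene, Gm39839, overlaps Ifih1, and reads of the 2 could have been counted together.

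The adaptor Mavs and the kinase Tbk1 differed less than either RNA sensor by point value. Mavs stood at 20.9 UPM (144 UMIs) in crypt progenitor-like cells and 35.6 UPM (140 UMIs) in enterocyte-like cells, 1.70-fold lower in the progenitors (1.34 to 2.16). Its goblet-like level of 34.3 UPM could not be told from the enterocyte-like level. Tbk1 stood at 111 UPM (761 UMIs) in crypt progenitor-like cells and 265 UPM (1042 UMIs) in enterocyte-like cells, 2.39-fold lower in the progenitors (2.18 to 2.63). Enteroendocrine-like and goblet-like cells followed at 148 and 146 UPM of Tbk1, and their intervals overlapped each other but not that of enterocyte-like cells.

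The interferon regulatory factors differed from each other in pattern. Irf3, which is present before any interferon signal, stood at 35.7 UPM (246 UMIs) in crypt progenitor-like cells and 25.9 UPM (102 UMIs) in enterocyte-like cells, a log2 ratio of 0.46 (0.12 to 0.81) beside 0.50 for the median gene. Each neighbour in its order of 7 named classes, from 36.1 UPM in Paneth-like to 15.5 UPM in lymphocyte-like cells, overlapped the next. Irf7, the interferon-inducible factor, stood at 6.25 UPM (43 UMIs) in crypt progenitor-like cells and 38.1 UPM (150 UMIs) in enterocyte-like cells. Its level was 6.10-fold lower in crypt progenitor-like cells (4.32 to 8.78). Without clusters of high doublet scores, its log2 ratio moved from -2.61 to -3.27 (-3.98 to -2.64). Goblet-like cells, at 20.5 UPM (104 UMIs), were 1.86-fold lower than enterocyte-like cells (1.44 to 2.41). Paneth-like cells, at 7.22 UPM (7 UMIs), were next to the progenitors with overlapping intervals.

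**Figure D1:**
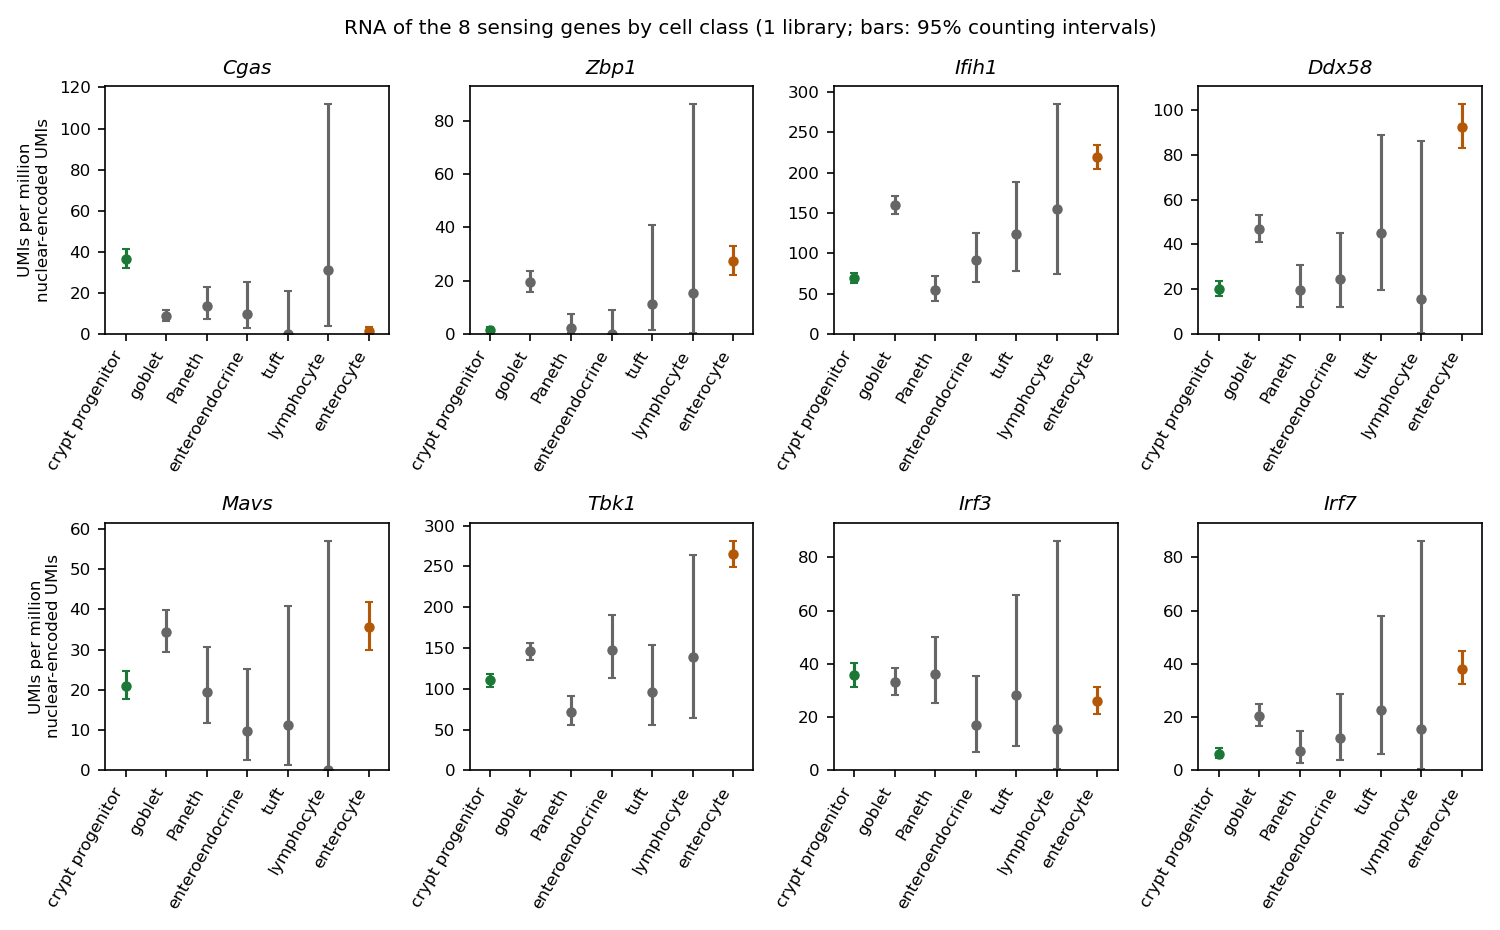
Level in UPM of each gene (vertical axes, which differ between genes) in 7 named cell classes, with crypt progenitor-like cells in green, enterocyte-like cells in orange and 95% counting intervals as bars. Cgas is at 36.6 in crypt progenitor-like and 1.52 in enterocyte-like cells, Zbp1 is at 1.31 and 27.2, and the lymphocyte-like class, with 104 cells, has wide intervals throughout.

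At a threshold of 2-fold, among genes with at least 20 UMIs over both classes, 1 of 8 members (Cgas) was higher and 5 of 8 (Zbp1, Ifih1, Ddx58, Tbk1 and Irf7) were lower in crypt progenitor-like cells. Of all 13080 nuclear-encoded genes that met the same minimum, 35.6% were higher and 14.7% were lower. The median log2 ratio was -1.46 over the members and 0.50 over all these genes. Cgas lay at percentile 97.8 of their ratios, and Zbp1 lay at percentile 0.291. That Cgas was high in progenitors and Zbp1 in enterocytes was known when the members were chosen. The percentiles and calls of these 2 genes are thus no test. Ddx58 lay at percentile 5.73, Ifih1 at 8.64 and Tbk1 at 12.0.

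The scale bears on these ratios. Scaled to UMIs of all kinds, every log2 ratio lies 1.15 higher, and 69.2% of genes were then higher and 5.99% lower in crypt progenitor-like cells. On that scale Cgas stood at 5.73, Zbp1 at -3.23, Irf7 at -1.46, Ddx58 at -1.06, Ifih1 at -0.52 and Tbk1 at -0.11, while Mavs turned to 0.38 and Irf3 reached 1.61. Members higher by 2-fold were then 2 and members lower 3. Centred on the median gene, 24.4% of genes were higher and 22.7% lower, and 6 members were lower, with Mavs added.

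Free RNA and doublets were gauged from marker sums and doublet scores beside the main contrast. The summed enterocyte markers (17 genes, none at 0 in either class) stood in crypt progenitor-like cells at 9.91% of their enterocyte-like level, and Zbp1 stood there at 4.81% of its own. The summed stem and cycling markers (25 genes, none at 0) stood in enterocyte-like cells at 14.8% of their progenitor level, and Cgas stood there at 4.16% of its own. Paneth markers, at 214900 UPM in Paneth-like cells, stood at 2181 UPM in crypt progenitor-like and 6705 UPM in enterocyte-like cells, so this read of free RNA differed between the classes. By these shares, Zbp1 in progenitors and Cgas in enterocytes stood no higher than marker RNA of the opposite class did in the same cells. Their few UMIs are not read as expression. Marker sums can also hold doublets and the cells' own expression, and the part of free RNA in them was not tested. T cell and intraepithelial lymphocyte markers (16 genes, 2 at 0 in each class) summed to 317 UPM in crypt progenitor-like and 69.1 UPM in enterocyte-like cells, against 2413 UPM in lymphocyte-like cells. Macrophage and dendritic markers (11 genes) summed to 2.03 UPM with 8 genes at 0 in crypt progenitor-like cells and to 7.37 UPM with 9 at 0 in enterocyte-like cells. Without the cells in the highest 8% of doublet scores, the Cgas log2 ratio was 4.63 and that of Zbp1 was -5.35. The crypt progenitor-like class holds a stem-like cluster led by Slc14a1 (220 cells) with a median doublet score of 0.206. Enterocyte markers summed to 9687 UPM in this cluster, against 3303 UPM in the whole class. It held 20 of the 43 Irf7 UMIs and 5 of the 9 Zbp1 UMIs of the class. Without clusters of high doublet scores, the Ifih1 log2 ratio moved from -1.67 to -1.88 (-2.06 to -1.70).

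The goblet-like class was uneven. Its cluster led by Pdia5 and Kcnma1 (570 cells) had 16.6 UPM of Cgas (31 UMIs), 12.9 UPM of Zbp1 (24 UMIs) and 92.4 UPM of Ifih1. The cluster led by Gm379 and Hs3st5 (635 cells) had 2.28 UPM of Cgas (3 UMIs), 40.3 UPM of Zbp1 (53 UMIs) and 257 UPM of Ifih1. The remaining goblet-like cluster, led by Wincr1 (290 cells), had 5.80 UPM of Cgas (11 UMIs), 11.6 UPM of Zbp1 (22 UMIs) and 159 UPM of Ifih1. Its median doublet score was 0.173, against 0.0563 in the cluster led by Pdia5 and 0.0358 in that led by Gm379, and the part of doublets in its levels was not tested. Between the clusters led by Pdia5 and by Gm379, chosen for this comparison after their values had been seen, the log2 ratio was 2.87 (1.19 to 5.22) for Cgas, -1.64 (-2.41 to -0.92) for Zbp1, -1.48 (-1.75 to -1.21) for Ifih1 and -1.76 (-2.60 to -0.98) for Irf7, beside 0.42 for the median gene. Tbk1 stood at -0.60 (-0.88 to -0.32), and Ddx58, Mavs and Irf3 had intervals that included equal levels. The S phase list summed to 1922 UPM in the cluster led by Pdia5 and 550 UPM in that led by Gm379, and the part of cell division in the difference was not tested.

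Cgas also varied with the cell cycle among crypt progenitor-like cells. States were set by S phase and G2/M gene lists that hold no member, on 1882 cells thinned to 1000 nuclear-encoded UMIs. Cgas stood at 67.1 UPM (93 UMIs) in 406 S-scored cells, 33.8 UPM (120 UMIs) in 870 G2/M-scored cells and 20.2 UPM (39 UMIs) in 606 unscored cells. The level in S-scored cells was 3.32-fold that in unscored cells (2.26 to 4.95), and the log2 ratio of S-scored over G2/M-scored cells was 0.99 (0.58 to 1.39). Of all genes with at least 20 UMIs, 3.32% were higher and 2.09% lower by 2-fold in S-scored than in unscored cells, and Cgas, the member higher by 2-fold, lay at percentile 99.2. For 293 of the 1882 cells the larger score lay within 0.05 of the boundary at 0, so the states are ranges of a score and not separate cell types.

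The RNA sensor Ifih1 and the kinase Tbk1 were lower in S-scored than in unscored cells, where Cgas was higher. Ifih1 stood at 54.8 UPM in S-scored, 63.9 UPM in G2/M-scored and 88.2 UPM in unscored cells, with a log2 ratio of -0.69 (-1.10 to -0.29) for S-scored over unscored cells. Tbk1 stood at 103, 98.3 and 139 UPM in the same order, with a log2 ratio of -0.43 (-0.73 to -0.13). Enterocyte markers summed to 2976, 3060 and 3969 UPM in the same order, and median doublet scores were 0.0469, 0.0539 and 0.0555. The part of both in the Ifih1 and Tbk1 ratios was not tested. Irf3 stood at 40.4, 37.5 and 29.0 UPM, and the interval of its ratio (-0.08 to 1.04) included equal levels, as did those of Ddx58, Mavs and Irf7. Zbp1 had 2, 3 and 4 UMIs in the 3 states and is too sparse for a comparison. In G2/M-scored over unscored cells 0 of the 7 members with at least 20 UMIs passed 2-fold in either direction, where 3.92% of all genes were higher and 3.66% lower. The nearest was Irf7, at a log2 ratio of -0.88 (-1.91 to 0.15), and Cgas stood at 0.74 (0.21 to 1.30).

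Along the villus 0 of the 7 members with at least 20 UMIs passed 2-fold, while Ifih1 and Tbk1 rose from the lower to the upper zone. Enterocyte-like cells with at least 5 UMIs of villus landmark genes (2985 cells) were split into 3 zones of 995 cells by the share of tip landmark UMIs among tip and base landmark UMIs. Ifih1 stood at 175 UPM in the lower, 219 UPM in the middle and 274 UPM in the upper zone, and its upper over lower log2 ratio was 0.64 (0.40 to 0.88). Tbk1 stood at 225, 285 and 288 UPM from lower to upper zone, with a log2 ratio of 0.36 (0.14 to 0.58). These were the 2 members whose intervals lay above 0, beside a median gene at -0.16. With the Reg genes left out of the base landmarks, the Tbk1 ratio was 0.18 (-0.05 to 0.41), that of Ifih1 was 0.63, and that of Irf7 was 0.80 (0.17 to 1.44). Of the zoned cells, 932 had a share within 0.05 of a zone boundary.

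Zbp1 had no detectable gradient between the zones of enterocyte-like cells at this depth, though its interval fell below 0 with an unnamed cluster added. It stood at 29.4 UPM (42 UMIs) in the lower, 30.7 UPM (35 UMIs) in the middle and 19.9 UPM (25 UMIs) in the upper zone, with a log2 ratio of -0.57 (-1.34 to 0.18). Counting the unnamed cluster led by Ada and Slc28a2, which also has tip landmark genes among its leading genes, with the enterocyte-like cells gave -0.71 (-1.44 to -0.01). Ddx58, Mavs, Irf3 and Irf7 had log2 ratios between -0.14 and 0.27, with intervals that included equal levels. Cgas had 5, 1 and 0 UMIs from lower to upper zone, and 0 UMIs allow up to 2.39 UPM. Of the 7 members with at least 20 UMIs 0 passed 2-fold in either direction, where 5.01% of all genes were higher and 8.29% lower. Nuclear-encoded UMIs per cell moved with the zones, with medians of 780, 859 and 1054 from lower to upper. Proximal segment markers also rose (4711, 5718 and 7240 UPM), but their list shares Apoa4 with the tip landmarks that set the zones. Distal segment markers fell (5561, 5294 and 4681 UPM), and their list shares Clec2h with the tip landmarks. Neither sum is thus independent of the zones. The part of depth and of segment in the Ifih1 and Tbk1 ratios was not tested.

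**Figure D2:**
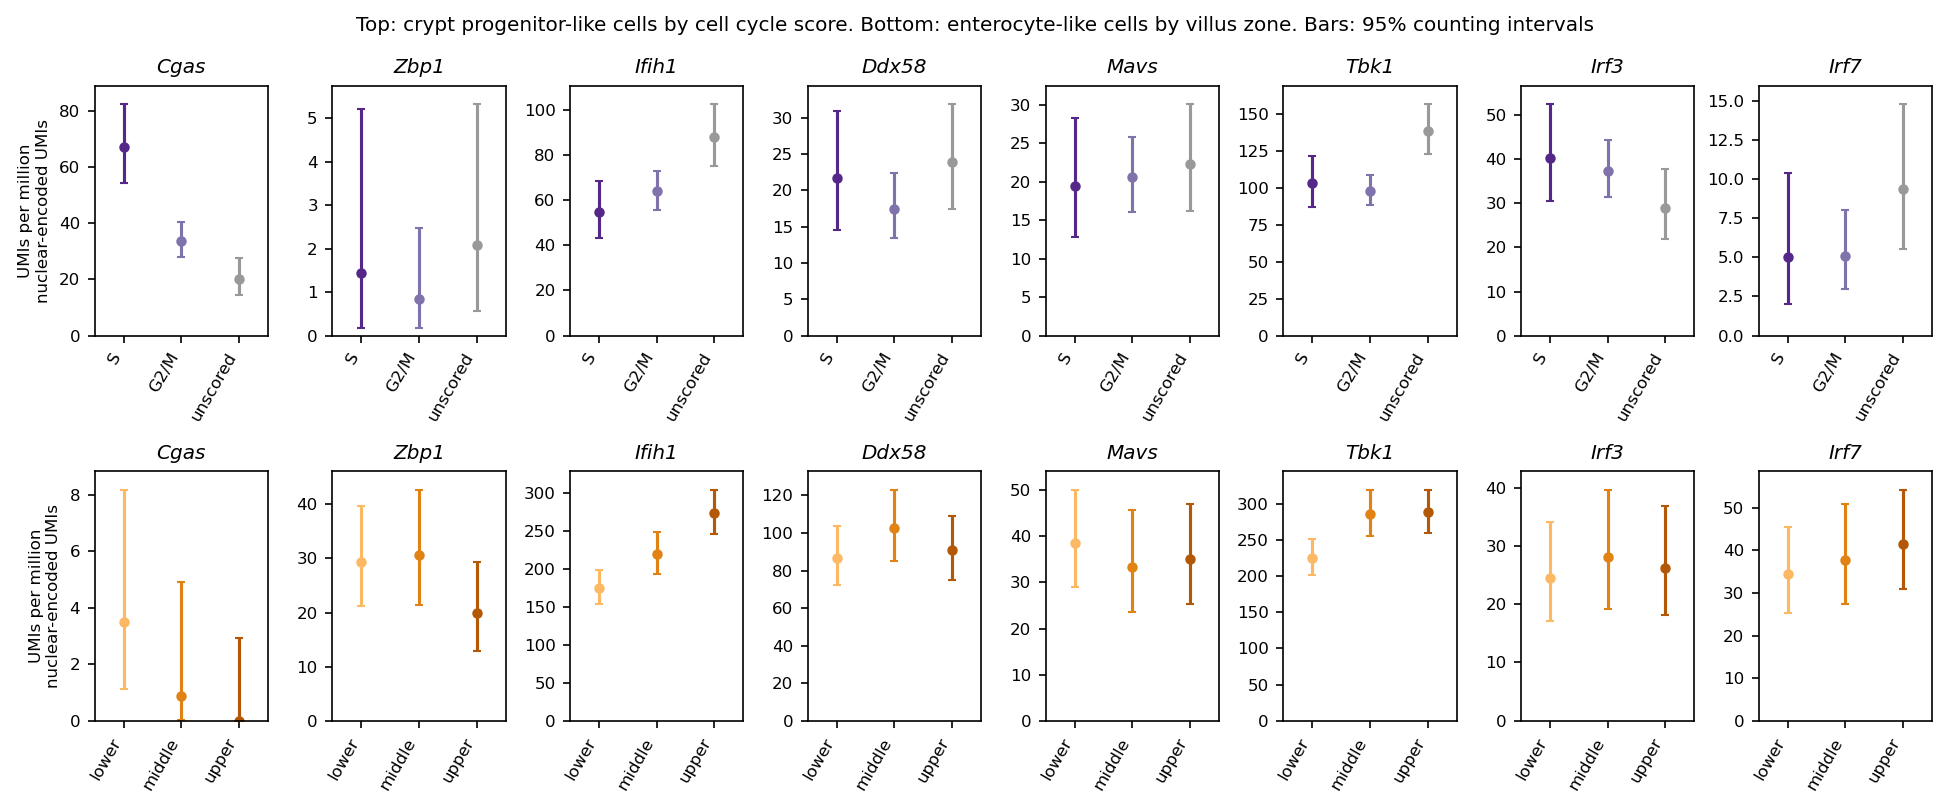
Levels of each gene in UPM, by cell cycle score in crypt progenitor-like cells (top row) and by villus zone in enterocyte-like cells (bottom row), with 95% counting intervals as bars and axes that differ between genes. Cgas is at 67.1 in S-scored and 20.2 in unscored cells, and Ifih1 is at 274 in the upper and 175 in the lower zone.

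Open chromatin at the gene starts differed less between the classes than RNA did. Fragments were summed over the 13 peaks that overlap 1000 bases either side of the start of a member and scaled to 1000000 fragments in peaks (FPM). The Cgas peak, chr9:78442548-78443424 (mm10), held 361 fragments, or 13.1 FPM, in crypt progenitor-like cells and 109 fragments, or 5.10 FPM, in enterocyte-like cells. That is a log2 ratio of 1.36 (1.04 to 1.68), in the same direction as its RNA and smaller. Cgas was the member called at 2-fold in promoter peaks, where 22.0% of 23018 genes with at least 20 promoter fragments were higher and 5.18% lower in crypt progenitor-like cells. The median log2 ratio was 0.21 over the members and 0.31 over all promoters.

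Tbk1, like its RNA, had lower promoter counts in crypt progenitor-like cells. Its promoter peaks held 48.2 FPM in crypt progenitor-like cells and 78.4 in enterocyte-like cells, a log2 ratio of -0.70 (-0.81 to -0.60), at percentile 7.21 of all promoters. The peak at its start, chr10:121586410-121587298, had a ratio of -0.66, and a second peak inside the gene, chr10:121585112-121585922, had a ratio of -0.78. Across the villus zones the Tbk1 promoter stood at 70.8, 82.0 and 83.1 FPM from lower to upper, with an upper over lower log2 ratio of 0.23 (0.05 to 0.41).

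Zbp1, Irf7, Ifih1 and Ddx58 had lower RNA in crypt progenitor-like cells, with promoter counts that were close to those of enterocyte-like cells or higher. Zbp1 promoter peaks stood at 23.5 FPM in crypt progenitor-like cells and 23.8 in enterocyte-like cells, a log2 ratio of -0.01 (-0.18 to 0.16). Its 3 peaks did not move together: the peak at the start, chr2:173218624-173219401, had a ratio of 0.40 (0.17 to 0.63), and that inside the gene, chr2:173217496-173218206, had -0.82 (-1.16 to -0.48). Irf7 stood at 23.0 FPM in crypt progenitor-like cells and 24.1 in enterocyte-like cells (log2 -0.07, -0.24 to 0.10), while scaling to fragments in promoter peaks gave -0.19 (-0.36 to -0.02). Ifih1, with 39.9 against 29.4 FPM, and Ddx58, with 24.7 against 15.2, had more promoter fragments in crypt progenitor-like cells, at log2 ratios of 0.44 (0.30 to 0.58) and 0.70 (0.51 to 0.89). The median promoter itself stood at 0.31. Among all promoters Ifih1 lay at percentile 57.9, Ddx58 at 68.6, Zbp1 at 26.8 and Irf7 at 23.3. The higher counts of Ifih1 and Ddx58 are thus not set apart from the shift over all promoters. The peaks at these starts, chr2:62645751-62646636 and chr4:40239488-40240107, cover the response element letters printed above.

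The Mavs promoter had no detectable difference between the classes, and that of Irf3 differed about as the median promoter (0.31) did. Mavs stood at 33.7 FPM in crypt progenitor-like and 32.1 in enterocyte-like cells (log2 0.07, -0.08 to 0.21), and Irf3 at 54.4 and 42.5 (log2 0.36, 0.24 to 0.48). The start of Irf3 lies 86 bases from that of Bcl2l12, so their promoter fragments cannot be told apart. The Cgas promoter did not move with the cell cycle score. It stood at 13.5 FPM in S-scored, 12.9 in G2/M-scored and 13.2 in unscored cells, with a log2 ratio of 0.03 (-0.42 to 0.47) for S-scored over unscored cells, an interval that lies below that of the RNA ratio (1.18 to 2.31).

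**Figure D3:**
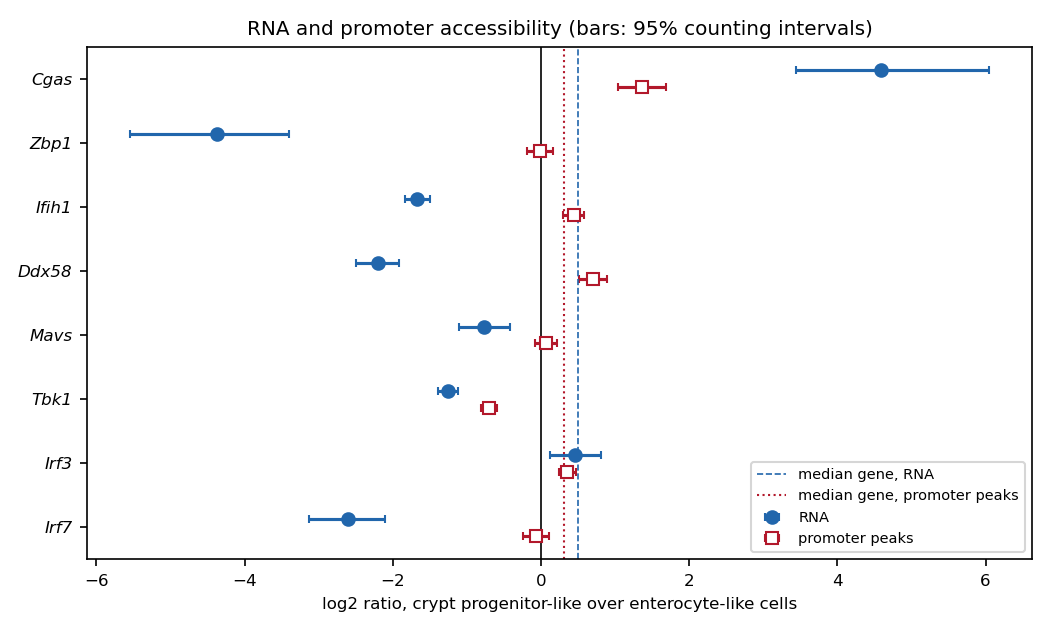
Log2 ratios of crypt progenitor-like over enterocyte-like cells (horizontal axis) for RNA (filled circles) and promoter peak fragments (open squares), with 95% counting intervals as bars and the median gene of each measure as a dashed or dotted line. RNA ratios span -4.38 (Zbp1) to 4.59 (Cgas), while promoter ratios span -0.70 (Tbk1) to 1.36 (Cgas).

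Other genes of the pathway were read from lists chosen with earlier results of these data known, without the members and among genes with at least 20 UMIs over both classes. Each count below stands beside 35.6% of all such genes higher and 14.7% lower by 2-fold in crypt progenitor-like cells. Of 9 RNA sensors, 7 were lower and 0 were higher, with a median log2 ratio of -1.28. The lowest were Oas3, an enzyme that makes oligoadenylate when it binds double-stranded RNA, with 15 against 91 UMIs (log2 -3.41), and its relative Oas2, with 1 against 19 UMIs (log2 -5.05, -10.43 to -2.40). Eif2ak2, the translation-blocking kinase PKR, and Tlr3, an endosomal RNA receptor, were not called, at log2 ratios of 0.12 and -0.44. Among DNA sensors 2 genes met the minimum. The inflammasome sensor Aim2 was higher in crypt progenitor-like cells, at 28.2 against 10.9 UPM (log2 1.37, 0.88 to 1.88), and Ddx41, a helicase, had a ratio of 0.77. The other 5 of the list, among them Ifi204, Ifi207 and Tlr9 with 0 UMIs in the kept cells, were below the minimum.

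Adaptors, kinases and factors were mostly within 2-fold. Of 15 adaptors and ligases, 3 were lower in crypt progenitor-like cells, a share near the 14.7% of all genes, and 1 was higher, at a median of -0.21. Tomm70a, a mitochondrial import receptor, was the one higher (log2 1.07), Traf3, a ubiquitin ligase, had 0.65, and the lowest were Nlrx1, a mitochondrial regulator (-1.77), and Ticam1, the adaptor of Tlr3 (-1.76). Sting1, the adaptor of Cgas, was named here after its values had been seen, for its place in the route. It had 20 UMIs in all kept cells, 13 of them in crypt progenitor-like and 1 in enterocyte-like cells, and fell below the minimum for a call. Among the kinases, Chuk, a subunit of the IkB kinase, was lower in crypt progenitor-like cells, with a ratio of -1.03. Ikbkb and Ikbkg, of the same complex, had 0.94 and 0.65. Of 10 interferon regulatory and Stat factors, 1 was lower, Stat2, a transducer of interferon receptor signals (-2.24), a share near that of all genes, and 0 were higher. Irf1 had -0.94, Rela 0.13 and Atf2 0.73.

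Of 10 nucleases and restrictors of sensing, 4 were higher in crypt progenitor-like cells and 1 was lower, at a median of 0.75. These shares are near the 35.6% and 14.7% of all genes and are no result about the list. Lmnb1, a lamin of the nuclear envelope, had the highest ratio (3.63) and Rnaseh2b, a subunit of the enzyme that removes RNA from DNA, the next (1.84). Samhd1, which destroys deoxynucleotides, had the lowest (-2.03, 255 against 597 UMIs), and Skiv2l, an RNA helicase of the exosome, had -0.81. Trex1, the cytosolic DNA exonuclease, had 0 UMIs in the kept cells.

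Of 8 interferon receptor and Jak genes, 4 were lower in crypt progenitor-like cells, 4 were not called and 0 were higher, at a median of -0.79 that turns positive with UMIs of all kinds as the scale. Ifnlr1 and Il10rb, the chains of the interferon lambda receptor, were 4.01-fold and 2.70-fold lower, and Ifnar2, a chain of the type I receptor, was 2.09-fold lower. The other type I chain, Ifnar1, had a log2 ratio of -0.15 (-0.47 to 0.18) and the receptor kinase Tyk2 had -0.17 (-0.51 to 0.17). Ifnar2 was named after its values had been seen. Of 15 interferon-stimulated targets 13 were lower, against 14.7% of all genes, and 0 higher, at a median of -2.66. Rsad2, an antiviral enzyme, had a log2 ratio of -3.61 (7 against 49 UMIs) and Ifit1, a binder of foreign RNA, -3.59 (17 against 117 UMIs). Ifit2 and Bst2 had the highest ratios, 0.59 and -0.70. Ifnb1, Ifna4, Ifnl2, Ifnl3 and Ifne had 0 UMIs in the kept cells, and Ifnk had 1. A count of 0 allows up to 0.436 UPM in crypt progenitor-like and 0.762 UPM in enterocyte-like cells, at 3 counts per class. Against these counts, the median of all genes stood at 0.50, and with UMIs of all kinds as the scale each list median lies 1.15 higher.

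**Figure D4:**
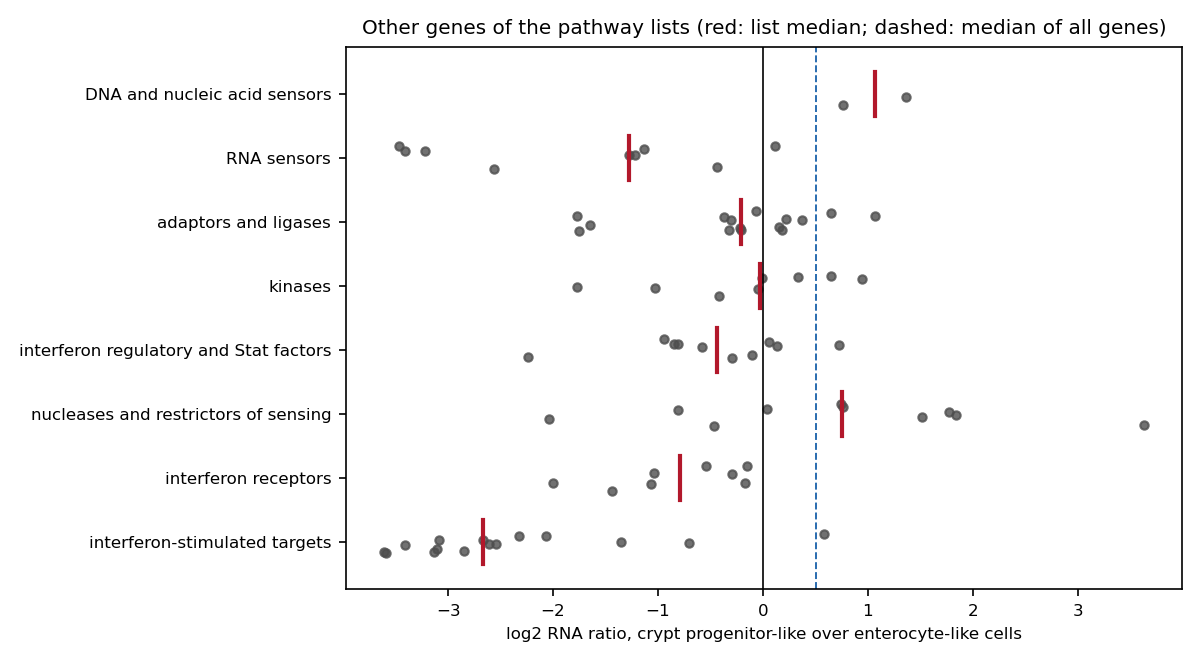
Log2 RNA ratio of crypt progenitor-like over enterocyte-like cells for each gene of 8 pathway lists that is not one of the members (points), with the list median in red and the median of all genes (0.50) as a dashed line. The interferon-stimulated targets have a median of -2.66 and the nucleases and restrictors a median of 0.75. Genes with fewer than 3 UMIs in a class are drawn at 3 UMIs.

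Across the 17 clusters of all classes, levels of Cgas followed the S phase list (Pearson r = 0.93 on the log2 scale of UPM plus 5) and, at r = 0.88, the G2/M list. Its most similar patterns among 4813 genes kept out of the clustering were those of Blm (0.97), Dtl (0.96), Cep250 (0.95), Eldr (0.94) and Cenpk (0.94). Blm and Dtl are themselves in the S phase list, so their values are not separate from that of the list. Zbp1 was most similar to Sp100 (0.92), Trim12c (0.90), Fam110c (0.89), Nat2 (0.88) and Copb2 (0.88). Irf7 was most similar to Enpp3 (0.95), which is one of the tip landmark genes, Plec (0.92), Ifit1bl1 (0.92), Mir22hg (0.91) and Itm2b (0.91). Ifih1 was most similar to Chmp4b (0.94), Itm2b (0.94), Trim12a (0.93), Gm30806 (0.90) and Irf7 (0.90). For Ddx58 these were Optn (0.95), Helz2 (0.94), Myo18a (0.93), Golga4 (0.93) and Stat2 (0.93).

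For Tbk1 the nearest patterns were Erbb3 (0.92), Abcb1a (0.92), Slc3a1 (0.91), D5Ertd579e (0.90) and Bcr (0.90), for Mavs they were Bag3 (0.90), Tnfaip8l3 (0.89), Rbsn (0.89), Entr1 (0.87) and Afg3l2 (0.87), and for Irf3 they were Polrmt (0.90), Champ1 (0.85), Gm16675 (0.83), Mtus2 (0.82) and Aplf (0.80). Between members, r was 0.90 for Ifih1 and Irf7, 0.82 for Zbp1 and Irf7, -0.81 for Cgas and Ddx58 and -0.61 for Cgas and Zbp1. The clusters come from 1 library, share its free RNA and differ in depth, so these values describe this library and carry no p-value.

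**Figure D5:**
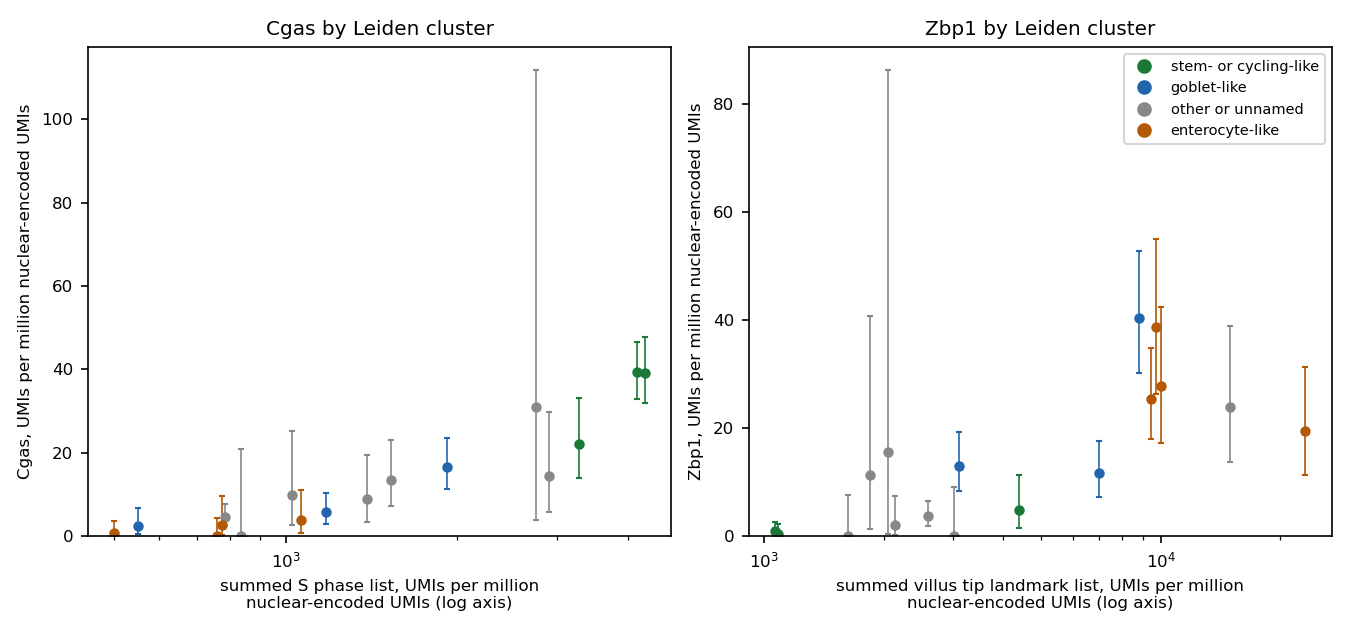
Level of Cgas against the summed S phase list and of Zbp1 against the summed villus tip landmark list (horizontal log axes), all in UPM, in 17 clusters coloured by class, with 95% counting intervals as bars. The stem-like and cycling-like clusters lie at the upper right for Cgas, and the 2 goblet-like clusters led by Pdia5 and by Gm379 stand apart, at 16.6 and 2.28 for Cgas and at 12.9 and 40.3 for Zbp1.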

How the data were processed

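The authors deposited 1 matrix of raw counts: UMIs of 55401 genes and counts in 146191 peaks. Its 12363 barcodes are shared by the gene expression and ATAC libraries. Per the submitters' processing notes it was made with Cell Ranger ARC 2.0.2 and mm10. Of the peak counts above 0, 87.6% were even, and dividing by 2 with rounding up gave fragments.

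Cells were clustered with scanpy 1.11.5 and the Leiden algorithm (leidenalg 0.10.2, resolution 1) on genes outside the members, the pathway lists, mtDNA and a seeded 50% of the rest, lineage markers excepted. A cluster was named where the median log2 ratio of a marker list reached 0.4, exceeded the next list by 0.4 and rested on 3 detected markers, and shallow clusters also needed 2 of those markers among their 10 leading genes. The naming rule, and splitting off 362 cells from the lymphocyte-like cluster into an unnamed one, were chosen after clusters had been seen. Scrublet marked 0 of 9872 cells at its threshold of 0.625, so the caller has not worked and doublets remain.

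The members and lists were chosen with earlier results of these data known. Summed UMIs or fragments were compared as ratios with exact 95% intervals from the binomial split of the 2 counts. UMI counts are not independent replicates, and intervals and floors of 3 counts cover counting error only. The calculation of ratios, intervals and calls was checked on simulated counts with known folds and counting error only. Those counts hold no free RNA, doublets or differences between cells, so the check is no test of the results. Text names every member, per pathway list the 2 highest and 2 lowest ratios (1 of these is not reported here), and 5 genes of most similar pattern among those with at least 200 UMIs. Alternatives changed library size, cells, clustering, depth, thresholds, zones and peaks.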

Additional observations from a re-analysis of the deposited data

How the results depend on the processing

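With 1 sample, no replicate could be left out and no test was run. No paired analysis was possible because the labels give 1 sample per library. Over the comparisons of crypt progenitor-like with enterocyte-like cells, the signs of the Cgas and Zbp1 RNA ratios held under every alternative that was run. Cgas ranged from 2.94 with clusters from ATAC peaks to 5.73 per UMIs of all kinds. Zbp1 ranged from -5.35 without the highest 8% of doublet scores to -3.23 per UMIs of all kinds, and stood at -3.24 with clusters from ATAC peaks. Per UMIs of all kinds 2 members were higher by 2-fold and 3 lower, against 1 and 5. Of all genes, 69.2% were then higher and 5.99% lower, against 35.6% and 14.7%. Among the other alternatives, the share of all genes higher ran from 24.4% (centred on the median gene) to 47.6% (1.5-fold). The share lower ran from 11.0% (clusters from ATAC peaks) to 22.7% (centred on the median gene). For the members, these other alternatives gave 1 higher and between 4 (clusters from ATAC peaks) and 6 lower. They were the highest 8% of doublet scores left out, a ceiling of 80% mtDNA-encoded UMIs, Leiden resolution 0.5, thinning to 500 UMIs, 1.5-fold, no minimum of UMIs, and, added after seeing the data, centring on the median gene and leaving out clusters of high doublet scores.

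The S-scored over unscored ratio of Cgas was 1.96 with scores on all UMIs and 1.77 per UMIs of all kinds. The upper over lower zone ratio of Zbp1 ran from -1.01 (without cells above 80% mtDNA-encoded UMIs, an alternative added after seeing the data) to -0.16 (base landmarks without Reg genes). The Zbp1 promoter ratio was 0.40 with peaks within 500 bases, where the peak at the start is the one left. Scaled to promoter peaks, that of Irf7 was -0.19 (-0.36 to -0.02). The Cgas promoter ratio stayed between 1.24 and 1.36 over peak clusters, 500 bases, counts as deposited and scaling to promoter peaks. Promoter peaks of the members were not held out of the peak clusters, so that alternative is not independent of the ratio. Depth limits Cgas in enterocyte-like cells (6 UMIs), Zbp1 in progenitors (9 UMIs) and all members in lymphocyte-like and tuft-like cells.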

Other observations

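Clusters that the marker rule left unnamed are outside the comparisons above. The cluster of 917 cells led by Gsdmc2, Cyp4f40 and Gsdmc3 had low levels of both DNA sensors, with 4.62 UPM of Cgas (14 UMIs) and 3.63 UPM of Zbp1 (11 UMIs). It stood at 90.5 UPM of Ifih1, 40.6 UPM of Ddx58 and 5.62 UPM of Irf7, and its S phase list summed to 782 UPM, close to the 725 UPM of enterocyte-like cells. The cluster of 1345 cells led by Ada, Slc28a2 and Ly6m, with a median of 449 nuclear-encoded UMIs per cell and 89.8% mtDNA-encoded UMIs, stood at 191 UPM of Ifih1, 23.9 UPM of Zbp1 (16 UMIs), 58.3 UPM of Irf7 (39 UMIs) and 8.97 UPM of Cgas (6 UMIs). The remaining unnamed cluster, of 362 cells, had 14.4 UPM of Cgas (7 UMIs) and no Zbp1 UMI.

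Among enterocyte-like clusters, Ifih1 ranged from 180 UPM in that led by Fgf15 and Plb1 to 339 UPM in that led by Slc28a2 and Clca4a. Mavs ranged from 20.6 UPM in the cluster led by Slc28a2 to 51.4 UPM in that led by Slc5a12 and Tmprss15. Zbp1 ranged from 19.5 to 38.7 UPM over the 4 clusters, with overlapping intervals.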
